A study of Macaca fuscata with 12 samples.

Results

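The voltage-gated calcium and sodium channel genes were followed over 12 Affymetrix rhesus macaque arrays of cerebral cortex. Members were all probe sets to which the array's gene table gives 1 symbol and whose symbol names a voltage-gated calcium channel subunit, a voltage-gated sodium channel subunit or NALCN, with SCN3B left out. This gave 38 probe sets of 25 genes, out of 52766 probe sets tested, 24956 of which carry 1 symbol and stand for 14132 genes. Of these, 20 probe sets of 14 genes encode pore-forming subunits and 18 probe sets of 11 genes encode auxiliary subunits. The arrays held left-hemisphere RNA of 8 Japanese macaques (Macaca fuscata), whose labelled ages run from 3 years 9 months to 6 years. The groups, with 3 arrays each, were tissue around the intraparietal sulcus of monkeys trained in tool use (IPS trained), the same tissue of control monkeys (IPS control), tissue around the lateral sulcus of trained monkeys, taking in the secondary somatosensory cortex (SII trained), and the same of control monkeys (SII control). The 4 animals that gave both regions supplied IPS trained 1 and SII trained 1, IPS trained 3 and SII trained 3, IPS control 1 and SII control 2, and IPS control 2 and SII control 3. SII trained 2 and SII control 1 came from females and the other 10 arrays from males. The labels name no genetic alteration and no drug, and they describe the control monkeys only as controls.

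A voltage-gated channel is a pore in the cell membrane that opens when the membrane depolarises. Sodium channels carry the upstroke of the action potential, and calcium channels turn depolarisation into calcium entry that drives transmitter release, dendritic signalling and activity-dependent transcription. The pore-forming alpha1 (calcium) or alpha (sodium) subunit sets the type of current, while auxiliary beta and alpha2delta subunits bring calcium channels to the membrane and tune their gating. Most gamma subunits of the family are better known in brain for escorting AMPA-type glutamate receptors, as TARP proteins.

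The calcium channel pores measured were the L-type CACNA1C, CACNA1D and CACNA1F, the N-type CACNA1B, the R-type CACNA1E and the T-type CACNA1I. The sodium channel pores were SCN1A, SCN2A, SCN3A and SCN8A, the main neuronal forms of the brain, and SCN4A, SCN7A, SCN9A and SCN10A, known chiefly from muscle, glia or peripheral nerve. The auxiliary subunits were CACNA2D1, CACNA2D2 and CACNA2D4, CACNB1, CACNB2 and CACNB3, and CACNG1, CACNG2, CACNG4, CACNG5 and CACNG7. A further 15 of the 40 genes looked for were not analysed here. Among these were the pores CACNA1A, CACNA1G, CACNA1H and NALCN and the auxiliary CACNB4, CACNA2D3, CACNG3 and CACNG8.

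Values are log2 units relative to a probe set's own median over the 12 arrays, so they carry no level and cannot be ranked between genes. A coarse signal class was recovered from the number format of the values. Of the members, 2 had a high signal (CACNA1B MmugDNA.38793.1.S1_at and SCN2A MmugDNA.37863.1.S1_at), 20 a middle, 15 a low signal and 1 (CACNA2D4 MmugDNA.28103.1.S1_at) lay at the lower limit of measurement, the floor, in 4 arrays. Both high-signal members were pore-forming, as were 9 of the 20 middle and 9 of the 15 low ones. The median SD within groups was 0.32 for members of high signal, 0.39 for middle and 0.81 for low signal, against 0.23, 0.37 and 0.78 over all probe sets of these classes. In bulk tissue, fewer cells of a type and less RNA per cell cannot be told apart.

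Arrays also differed apart from their groups. The 27 probe sets of the hybridisation controls lay at 0.46 in IPS trained 3, 0.54 in SII trained 2 and 0.45 in SII control 1, with the remaining arrays at -0.13 to 0.08. On the first principal component (17.3% of variance) the arrays of the females, SII trained 2 and SII control 1, scored 161 and 130, and all others between -56.6 and 20.4. The labels give no hybridisation date and name the arrays of the regions differently, so region and hybridisation batch may coincide and cannot be told apart.

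Among the L-type pores, CACNA1C, which couples depolarisation to gene expression in neurons, had the widest spread. Its values were -0.06, -1.83 and -0.07 in IPS trained, 0.06, 0.46 and -1.35 in IPS control, 0.74, -1.72 and 0.88 in SII trained and -0.95, 0.73 and 0.69 in SII control. One array in each group lay far below the other pair, so the groups overlapped throughout. Its training change was -0.39 ± 0.82 in IPS and -0.19 ± 0.82 in SII. CACNA1D, an L-type pore that opens at more negative voltages, averaged -0.51 ± 0.78 in IPS trained, -0.06 ± 0.24 in IPS control, -0.22 ± 0.31 in SII trained and 0.06 ± 0.10 in SII control (SD, n = 3 each). Its training change was -0.46 ± 0.36 in IPS and -0.27 ± 0.36 in SII (log2 change ± SE), with an unadjusted p of 0.227 and 0.464 in limma. CACNA1F, known chiefly as the L-type pore of the retina, had changes of 0.42 ± 0.39 and 0.15 ± 0.39 in IPS and SII.

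CACNA1B, the N-type pore of presynaptic terminals, was measured by a high-signal and a middle-signal probe set. The high-signal one averaged 0.06 ± 0.37 in IPS trained, -0.01 ± 0.02 in IPS control, -0.12 ± 0.38 in SII trained and -0.19 ± 0.25 in SII control (SD, n = 3 each). Its training change was 0.07 ± 0.27 in IPS (95% interval -0.53 to 0.67) and 0.07 ± 0.27 in SII (95% interval -0.53 to 0.67), and the middle-signal probe set gave 0.09 ± 0.33 and 0.24 ± 0.33. These intervals leave out a change of 1 log2 unit in either direction, while smaller changes lay within them. CACNA1I, a T-type pore that opens near the resting potential, gave -0.01 ± 0.30 in IPS and 0.13 ± 0.30 in SII by its middle-signal probe set, and 0.68 ± 0.61 and -0.49 ± 0.61 by its low-signal one. The CACNA1I probe sets therefore disagreed in sign in both regions.

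None of the sodium channel pores of brain neurons passed the test for training. SCN2A, the pore of excitatory axons and dendrites, had values of 0.58, -0.13 and -0.46 in IPS trained, 0.38, -0.28 and 0.19 in IPS control, 0.28, -0.09 and -0.18 in SII trained and 0.04, 0.15 and -0.04 in SII control by its high-signal probe set. The groups overlapped, and its training change was -0.10 ± 0.30 in IPS and -0.05 ± 0.30 in SII. The middle-signal SCN2A probe set gave 0.60 ± 0.51 and -0.54 ± 0.51, with limma p of 0.266 and 0.316. SCN3A, prominent in the fetal brain, gave 0.01 ± 0.23 in IPS and 0.23 ± 0.23 in SII. SCN8A, the main pore at nodes of Ranvier and axon initial segments, gave -0.11 ± 0.23 and -0.12 ± 0.23 by its middle-signal probe set, and 0.14 ± 0.75 and 1.13 ± 0.75 by its low-signal one. The last value is large but had a limma p of 0.166, and it rested on SII control 1 at -2.84: without that array it was 0.19, and without SII control 3 it was 1.85 (limma p 0.0273). SCN1A, a pore of fast-spiking inhibitory neurons, gave -0.13 ± 0.29 and -0.03 ± 0.29 in IPS and SII by MmugDNA.39068.1.S1_at, and -0.14 ± 0.57 and -0.55 ± 0.57 by MmuSTS.2143.1.S1_at. Of the pores known from peripheral nerve, SCN9A gave -0.37 ± 0.34 and 0.13 ± 0.34, and SCN10A -0.36 ± 0.64 and 0.61 ± 0.64, each by 1 low-signal probe set.

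**Figure D1:**
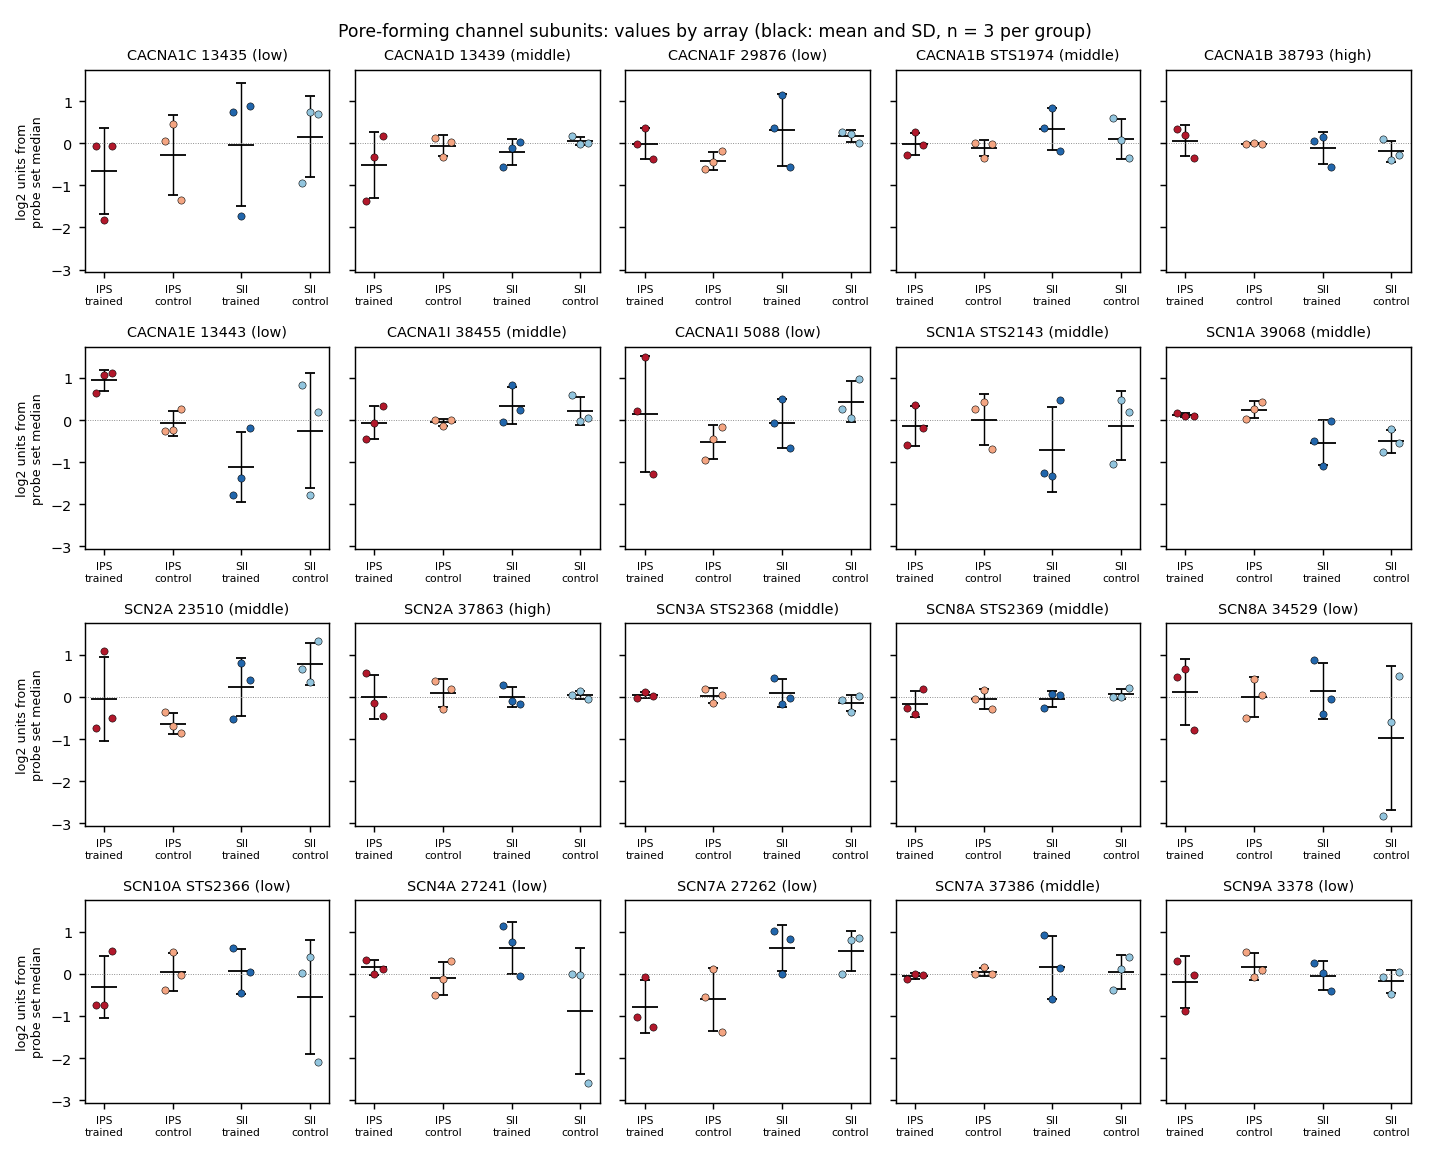
Values of the 20 pore-forming probe sets by array, in log2 units from each probe set's own median, with 1 panel per probe set (signal class in brackets) and the groups IPS trained, IPS control, SII trained and SII control from left to right. Coloured points are arrays and black bars the mean and SD of 3 arrays; the low-signal panels of SCN8A and SCN4A hold the lowest points, SII control 1 at -2.84 and SII control 3 at -2.60.

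Among the auxiliary subunits, the alpha2delta proteins bring calcium channels to the synapse, and CACNA2D1 and CACNA2D2 bind gabapentin-type drugs. CACNA2D1 averaged -0.10 ± 0.29 in IPS trained, -0.18 ± 0.61 in IPS control, 0.28 ± 0.33 in SII trained and -0.14 ± 0.25 in SII control (SD, n = 3 each). Its training change was 0.09 ± 0.33 in IPS and 0.41 ± 0.33 in SII. CACNA2D2 gave 0.08 ± 0.24 and -0.06 ± 0.24. The floor probe set of CACNA2D4 is an upper limit in 1 IPS trained, 2 SII trained and 1 SII control arrays, and its values there have no order. The other CACNA2D4 probe set gave -0.19 ± 0.44 in IPS and 0.10 ± 0.44 in SII.

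The beta subunits bind the inside of the calcium channel pore and carry it to the membrane. CACNB3, a common neuronal form, gave -0.06 ± 0.24 in IPS and 0.08 ± 0.24 in SII by MmuSTS.3281.1.S1_at, and 0.23 ± 0.44 and -0.00 ± 0.44 by MmugDNA.23730.1.S1_at. CACNB1 and CACNB2 each had probe sets that disagreed in sign in a region: CACNB1 gave -0.39 ± 0.47 and 0.39 ± 0.38 in IPS, and 0.28 ± 0.47 and 0.35 ± 0.38 in SII. The 3 probe sets of CACNB2 gave 0.14 ± 0.30, -0.50 ± 0.59 and 0.12 ± 0.20 in IPS, and -0.07 ± 0.30, -0.60 ± 0.59 and 0.27 ± 0.20 in SII. Over the 12 genes with more than 1 probe set, all probe sets of a gene shared a direction for 4 genes in IPS, 6 in SII and, for IPS against SII, 7.

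The gamma subunit CACNG2 (stargazin), which holds AMPA receptors at synapses, averaged -0.19 ± 0.32 in IPS trained, -0.06 ± 0.14 in IPS control, 0.02 ± 0.63 in SII trained and 0.22 ± 0.48 in SII control (SD, n = 3 each). Its training change was -0.14 ± 0.36 in IPS and -0.20 ± 0.36 in SII. CACNG7, another TARP, gave 0.32 ± 0.36 and 0.16 ± 0.36, and CACNG1, the gamma subunit of the skeletal muscle calcium channel, 0.22 ± 0.36 and 0.47 ± 0.36. CACNG5 had 2 low-signal probe sets. They changed by 0.11 ± 0.70 and -0.29 ± 0.31 in IPS and by -0.89 ± 0.70 and -0.14 ± 0.31 in SII. CACNG4 MmugDNA.22539.1.S1_at averaged -0.18 ± 0.32 in IPS trained and -0.37 ± 0.06 in IPS control. It averaged 0.38 ± 0.60 in SII trained and 0.83 ± 0.30 in SII control. CACNG4 MmuSTS.3282.1.S1_at averaged -0.77 ± 0.88 in IPS trained and -0.51 ± 1.15 in IPS control. It averaged 0.68 ± 0.79 in SII trained and 0.36 ± 0.63 in SII control (SD, n = 3 each for CACNG4).

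**Figure D2:**
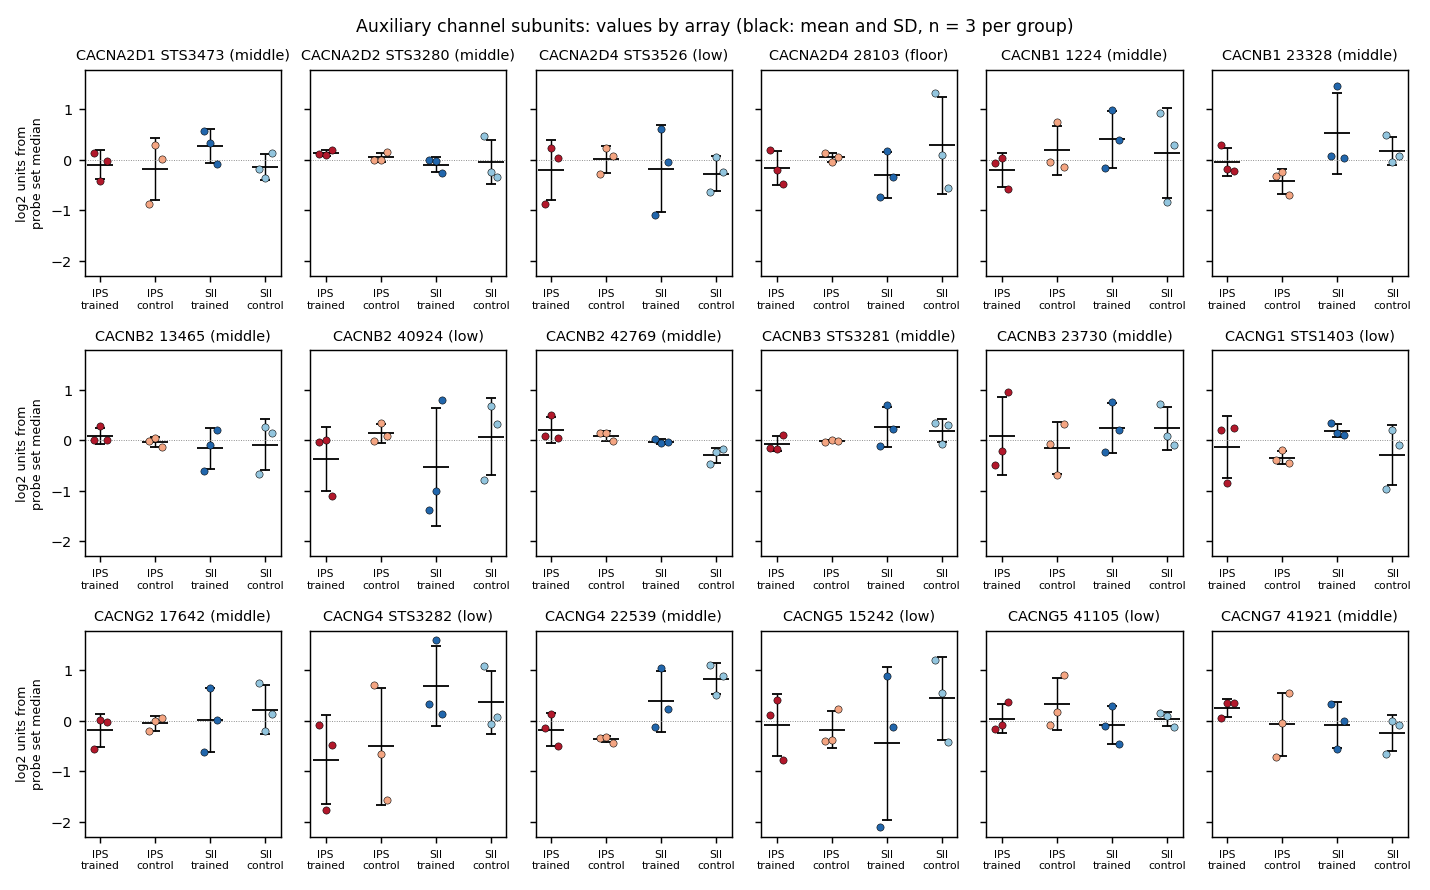
Values of the 18 auxiliary probe sets by array, drawn as for the pore-forming subunits, with the groups IPS trained, IPS control, SII trained and SII control from left to right and black bars for the mean and SD of 3 arrays. In the panels of CACNG4 most IPS points lie below most SII points, while the trained and control points of a region overlap in nearly every panel.

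The design asks first whether training in tool use moved these genes in each region. In limma, with Benjamini-Hochberg adjustment over all probe sets, no member passed 5% in either region, every member's adjusted p was 1.00, and no probe set of the array passed. In IPS, 0 of 38 members had an unadjusted p under 0.05, against 3.27% of all probe sets. In SII, 1 of 38 did, against 3.87% of all probe sets. The p-values measure only the spread between the arrays of these animals within groups, array differences included. In IPS 9 of 20 pore-forming probe sets lay above 0, with a median of -0.06, and 10 of 18 auxiliary ones, with a median of 0.08; over all probe sets 51.7% did, with a median of 0.01. In SII 11 of 20 pore-forming probe sets lay above 0, with a median of 0.08, and 9 of 18 auxiliary ones, with a median of 0.04; over all probe sets 56.4% did, with a median of 0.06.

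In IPS the 95% interval of the training change lay within 1 log2 unit of 0 for 16 of 38 members, 8 of them pore-forming and 8 auxiliary. In SII it did so for 17 members, 9 pore-forming and 8 auxiliary. For the remaining members a change of 1 log2 unit, in at least one direction, was not excluded by the interval. Member changes ran between -0.50 and 1.00 in IPS and between -0.89 and 1.48 in SII.

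The largest SII change was that of SCN4A, the sodium channel pore of skeletal muscle, which is named because it was the 1 member with an unadjusted p under 0.05 and was chosen after its values were seen. Its low-signal probe set stood at 1.13, 0.77 and -0.06 in SII trained, against -0.01, -0.04 and -2.60 in SII control. The groups overlapped, and most of the difference came from SII control 3. The SII change was 1.48 ± 0.63 (limma p 0.0387), and without SII control 3 it was 0.62 (limma p 0.131). In IPS the change was 0.25 ± 0.63. The 7 measured genes of the skeletal and heart muscle markers were averaged per array. They ranged from -0.37 to 0.90 in SII trained and from -0.19 to 0.50 in SII control. Of their 13 probe sets, 5 lay at the floor in at least 2 arrays and 4 had a low signal. The floor, relative to its mean over arrays, lay at 0.96 in SII trained 2 and 0.66 in SII control 1, which held the highest means. It lay at -0.62 in SII trained 3 and -0.71 in SII control 2, which held the lowest. The part of these markers in the SCN4A value was not tested.

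Trained and control arrays did not overlap for 2 members in IPS, against 9.49% of all probe sets, and for 1 in SII, against 7.08%. All 3 lay higher in the trained arrays, as did 5.77% of all probe sets in IPS and 4.7% in SII. In SII the member was CACNB2 MmugDNA.42769.1.S1_at, at 0.02, -0.06 and -0.04 in SII trained and -0.46, -0.24 and -0.18 in SII control. The trained arrays lay higher by a narrow margin, with a change of 0.27 ± 0.20 (limma p 0.21), and the other CACNB2 probe sets had the opposite sign. In IPS one was CACNB1 MmugDNA.23328.1.S1_at, at 0.29, -0.18 and -0.22 in IPS trained and -0.31, -0.24 and -0.70 in IPS control. Its change was 0.39 ± 0.38 (limma p 0.323), and the other CACNB1 probe set had the opposite sign at -0.39. The other IPS member was CACNA1E.

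CACNA1E, the R-type pore of dendrites and spines, was measured by 1 low-signal probe set and was the member whose training changes differed most between regions. It stood at 0.64, 1.07 and 1.11 in IPS trained, against -0.26, -0.24 and 0.27 in IPS control. It stood at -1.78, -1.37 and -0.20 in SII trained, against 0.84, -1.79 and 0.20 in SII control. All IPS trained arrays lay above all IPS control arrays, whereas in SII the control arrays spread widely and reached both above and just below the trained ones. The change was 1.00 ± 0.62 in IPS (limma p 0.136) and -0.87 ± 0.62 in SII (limma p 0.189).

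The test of the difference between those changes gave 1.86 ± 0.86 for CACNA1E (95% interval -0.04 to 3.77; limma p 0.0541, adjusted p 1.00). Without SII control 2, the low control array, it was 2.64 (limma p 0.00163), and without SII trained 3 it was 2.32 (limma p 0.0225). It was smaller in other fits: 1.34 without SII control 1 (limma p 0.126), 1.21 in the males alone (limma p 0.203), 1.32 in the 4 animals with both regions (limma p 0.264) and 1.15 without the 3 arrays with raised hybridisation controls (limma p 0.284). It kept its sign in all 23 alternatives run and had an unadjusted p under 0.05 in 3 of them. For the difference, 0 of 38 members had an unadjusted p under 0.05, against 3.68% of all probe sets. For the average of both training changes the count was 0 of 38, against 3.48%. Of the pore-forming probe sets 6 of 20 had a higher change in IPS than in SII, and of the auxiliary ones 10 of 18, against 46.5% of all probe sets.

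**Figure D3:**
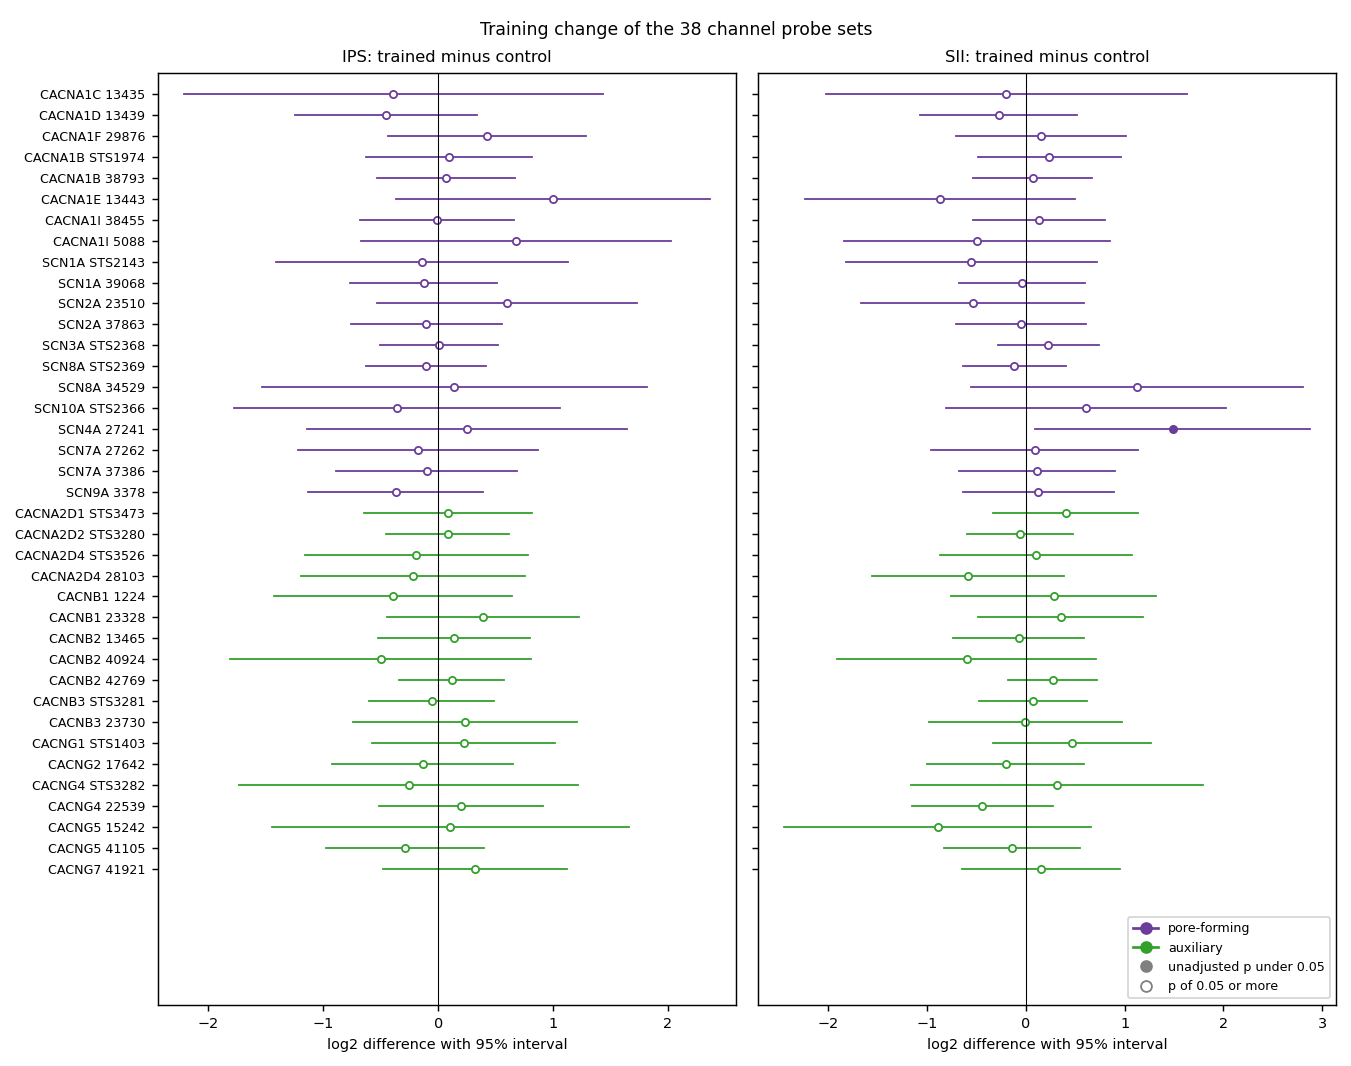
Training changes (trained minus control, log2) of the 38 member probe sets in IPS and SII, with 95% intervals; purple marks pore-forming and green auxiliary subunits, and a filled point an unadjusted p under 0.05. The 1 interval that does not span 0 is that of SCN4A in SII, the filled point at 1.48.

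The second contrast the arrays allow is IPS against SII over both training states. Here 6 of 38 members had an unadjusted p under 0.05, which is 15.8%, against 9.26% of all probe sets. Of these, 4 were pore-forming and 2 auxiliary; 2 were higher in IPS, as were 4.08% of all probe sets, and 4 lower, as were 5.18%. None passed 5% after adjustment over all probe sets in limma, where the smallest adjusted p of a member was 0.421 and no probe set of the array passed. Over all members, 10 of 20 pore-forming probe sets lay higher in IPS, with a median difference of -0.05, and 7 of 18 auxiliary ones, with a median of -0.15; 49.2% of all probe sets did, with a median of -0.01. The difference lay within 1 log2 unit of 0 by its 95% interval for 9 pore-forming and 13 auxiliary probe sets.

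SCN1A was higher in IPS by MmugDNA.39068.1.S1_at, though not past the adjusted threshold. Its values were 0.18, 0.10 and 0.10 in IPS trained, 0.03, 0.27 and 0.44 in IPS control, -0.49, -1.10 and -0.03 in SII trained and -0.76, -0.22 and -0.54 in SII control. Every IPS array lay above every SII array, and it was the 1 member of 38 without overlap, against 0.984% of all probe sets, 0.639% of them higher in IPS. The difference was 0.70 ± 0.20 (limma p 0.00553, adjusted p 0.424), and 0.50 in the male animals alone. The other SCN1A probe set had the same sign at 0.34 ± 0.40.

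CACNA1E was also higher in IPS, by 1.12 ± 0.43 (limma p 0.0256, adjusted p 0.504). The values above show that this difference lay mostly in the trained groups, where the IPS arrays lay between 0.64 and 1.11 and the SII arrays between -1.78 and -0.20; in the control groups the SII arrays spanned the IPS arrays. In the males alone it was 1.32.

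The SCN2A probe sets did not share a difference. The middle-signal MmugDNA.23510.1.S1_at stood at -0.73, 1.10 and -0.50 in IPS trained, -0.36, -0.69 and -0.85 in IPS control, -0.53, 0.81 and 0.40 in SII trained and 0.67, 0.36 and 1.32 in SII control. It was lower in all IPS control than in all SII control arrays, while the trained arrays overlapped. The difference was -0.85 ± 0.35 (limma p 0.0369, adjusted p 0.513), and -0.61 without the 3 arrays with raised hybridisation controls (limma p 0.203). The high-signal SCN2A probe set differed by 0.02 ± 0.21 (95% interval -0.44 to 0.48).

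SCN7A and CACNG4 are named because their probe sets had the smallest p of the lower members, and were chosen after their values were seen. SCN7A, an atypical sodium channel pore known from glia and sensing of sodium, stood at -1.02, -0.07 and -1.26 in IPS trained, -0.56, 0.11 and -1.37 in IPS control, 1.01, 0.00 and 0.84 in SII trained and -0.00, 0.80 and 0.85 in SII control by its low-signal probe set. The IPS arrays were lower apart from IPS control 2, which lay above SII trained 2 and SII control 1. The difference was -1.29 ± 0.33 (limma p 0.00263, adjusted p 0.421), and -1.57 in the males. The middle-signal SCN7A probe set differed by -0.11 ± 0.25. As for training, the low-signal probe set averaged -0.78 ± 0.63 in IPS trained and -0.61 ± 0.74 in IPS control. It averaged 0.62 ± 0.54 in SII trained and 0.55 ± 0.48 in SII control. The middle-signal one averaged -0.05 ± 0.07 in IPS trained and 0.05 ± 0.09 in IPS control. It averaged 0.16 ± 0.75 in SII trained and 0.05 ± 0.40 in SII control (SD, n = 3 each).

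CACNG4, a TARP, was the gene whose probe sets were both lower in IPS with an unadjusted p under 0.05. MmugDNA.22539.1.S1_at, of middle signal, stood at -0.15, 0.13 and -0.51 in IPS trained, -0.34, -0.33 and -0.43 in IPS control, -0.13, 1.05 and 0.24 in SII trained and 1.10, 0.50 and 0.88 in SII control. All IPS control arrays lay below all SII control arrays, and the trained groups overlapped through SII trained 1. The difference was -0.87 ± 0.22 (limma p 0.00271, adjusted p 0.421). It was -0.65 in the males (limma p 0.00760) and -0.56 without the 3 arrays with raised hybridisation controls, the largest departure among its alternatives. The low-signal MmuSTS.3282.1.S1_at differed by -1.13 ± 0.46 (limma p 0.034, adjusted p 0.509), and by -0.73 in the males (limma p 0.165).

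**Figure D4:**
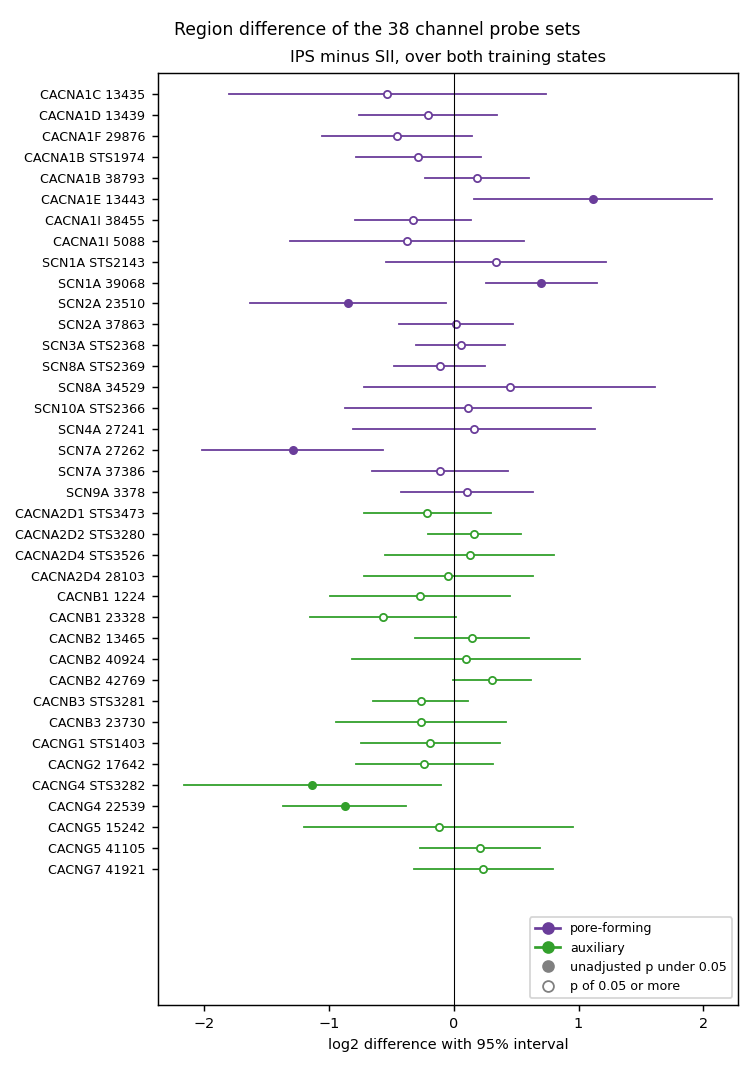
Region differences (IPS minus SII, log2) of the 38 member probe sets over both training states, with 95% intervals; purple marks pore-forming and green auxiliary subunits, and filled points an unadjusted p under 0.05. CACNA1E and SCN1A (MmugDNA.39068.1.S1_at) lie above 0 and SCN2A (MmugDNA.23510.1.S1_at), SCN7A and the CACNG4 probe sets below it.

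Within the 4 animals that gave both regions, IPS minus SII had the same sign in all 4 for 9 of 38 members, against 16.1% of all probe sets. Besides SCN1A MmugDNA.39068.1.S1_at, those higher in every IPS sample were the high-signal CACNA1B at 0.29 ± 0.07, CACNA2D2 at 0.29 ± 0.15 and CACNB2 MmugDNA.42769.1.S1_at at 0.21 (mean difference ± SD where given, n = 4 animals). Other probe sets of CACNA1B and CACNB2 did not share this. CACNA1B MmuSTS.1974.1.S1_at differed by -0.14 (higher in 2 of 4 animals). CACNB2 MmugDNA.40924.1.S1_at differed by -0.31 (2 of 4) and MmugDNA.13465.1.S1_s_at by 0.01 (1 of 4). SCN1A MmugDNA.39068.1.S1_at differed by 0.66, 0.13, 0.25 and 0.81 in the order of the animals given at the start. The other SCN1A probe set was higher in only 2 of the 4 animals, with a mean of 0.02. The lower ones were CACNA1C at -0.66 ± 0.31, both SCN7A probe sets at -1.56 ± 0.64 and -0.39 ± 0.43, SCN2A MmugDNA.23510.1.S1_at at -0.95 ± 0.76 and CACNG4 MmugDNA.22539.1.S1_at at -0.71 ± 0.50. The high-signal SCN2A probe set was higher in 2 of the 4 animals, with a mean of 0.003. CACNA1E was higher in 3 of the 4 animals, by 2.42, 1.31 and 1.53, and lower by 0.44 in the pair IPS control 2 and SII control 3. The low-signal CACNG4 probe set differed by -0.24 in these animals (limma p 0.496).

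**Figure D5:**
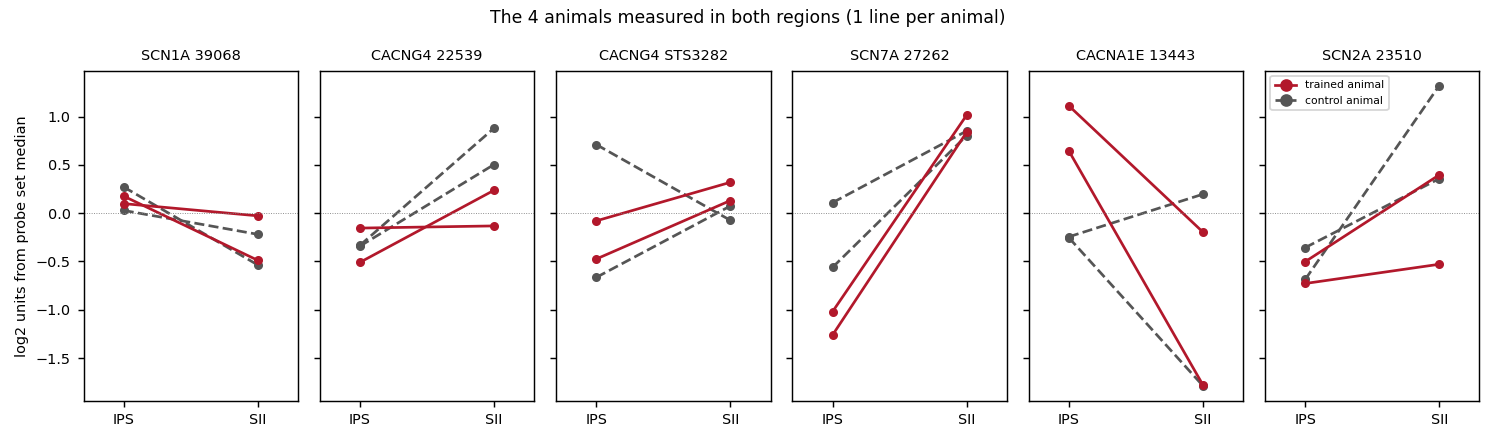
IPS and SII values of the same animal for 6 members, in log2 units from the probe set median, with a line per animal (trained and control in different colours) over the 4 animals that gave both regions. SCN7A (MmugDNA.27262.1.S1_at), SCN2A (MmugDNA.23510.1.S1_at) and CACNG4 (MmugDNA.22539.1.S1_at) lie lower, and SCN1A (MmugDNA.39068.1.S1_at) higher, in the IPS sample of every animal.

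No cell type marker passed 5% after adjustment for IPS against SII in limma (smallest adjusted p 0.228, a microglia probe set). Of 11 microglia probe sets all 11 lay lower in IPS, with a median difference of -0.36, while 49.2% of all probe sets lay higher. An unadjusted p under 0.05 held for 2 of the 11, against 9.26% of all probe sets (5.18% lower in IPS). The marker mean per array ranged from -0.32 to 0.06 in IPS trained and -0.73 to -0.15 in IPS control, against 0.16 to 0.32 in SII trained and -0.11 to 0.34 in SII control. Of 8 excitatory neuron probe sets (7 of 10 genes measured), 3 had a high and 5 a middle signal, and 6 lay lower in IPS, 2 of them with an unadjusted p under 0.05. Their mean ranged from -0.33 to 0.24 in IPS trained and -0.30 to -0.15 in IPS control, against -0.09 to 0.27 in SII trained and 0.13 to 0.23 in SII control. GABA neuron markers (8 of 11 genes) ranged from -0.25 to -0.01, -0.20 to 0.14, -0.06 to 0.09 and -0.19 to 0.25 in the same order and overlapped throughout, with 0 of 13 probe sets at an unadjusted p under 0.05. At this threshold astrocyte markers had 2 of 8 probe sets, and endothelium and pericytes 2 of 12. Skeletal and heart muscle had 2 of 13, oligodendrocyte precursors 1 of 12, oligodendrocytes 0 of 5 and meninges 0 of 15. At the floor in at least 2 arrays were 5 of 13 muscle, 3 of 15 meninges, 1 of 12 endothelium and pericyte and 1 of 12 precursor probe sets. No probe set of the other cell types was. Beyond these classes, centred values do not show which markers are absent. The part of these markers in the channel differences was not tested.

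The genes that anchor, modify or regulate these channels were read from a list of 43, of which 27 were measured, with the mean over a gene's probe sets. At gene level, 0 of 27 had an unadjusted p under 0.05 for training in IPS, against 2.94% of all 14132 genes, and 0 in SII, against 3.53%. The smallest p in IPS and the next to smallest in SII belonged to NRCAM, a cell adhesion molecule of the node of Ranvier, which was -0.71 ± 0.38 in IPS (limma p 0.0857) and -0.71 ± 0.38 in SII (limma p 0.0848). Its average over both regions, -0.71 ± 0.27 (limma p 0.0236, adjusted p 1.00), was the only 1 of 27 with an unadjusted p under 0.05, against 3.18% of all genes. In SII STAC3, an adaptor of the skeletal muscle L-type channel, gave 1.43 ± 0.74 (limma p 0.0824), and in IPS REM2, a small GTPase that inhibits calcium channels, gave 0.51 ± 0.35 (limma p 0.174). For the difference between the changes the smallest p were those of STAC3, -2.24 ± 1.03 (limma p 0.0545), and CAMK2A, the calmodulin kinase of excitatory synapses, 0.96 ± 0.54 (limma p 0.106), and none of 27 was under 0.05, against 3.16%.

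Between regions 2 of 27 partner genes had an unadjusted p under 0.05, against 10.3% of all genes, both lower in IPS. CAMK2B, a kinase that binds calcium channel complexes, differed by -0.52 ± 0.16 (limma p 0.00783, adjusted p 0.386), and NEDD4L, a ubiquitin ligase that removes sodium channels from the membrane, by -0.71 ± 0.25 (limma p 0.0179, adjusted p 0.414). The same fit for the channel genes themselves gave 4 of 25 genes, none past 5% after adjustment, where 2 of all genes (0.0142%) passed. These were CACNG4 at -1.003 ± 0.28 (limma p 0.00511, adjusted p 0.356), SCN7A at -0.70, SCN2A at -0.41 and CACNA1E at 1.12.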

How the data were processed

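The authors deposited log2 values, centred on each probe set's own median over the 12 arrays (largest deviation of a median from 0, 2.5e-07). MAS5 is named, without a version, per the submitters' processing notes. The log base was read from the range of the values, and how arrays were scaled is not stated in those notes or the labels. Of 52865 probe sets, 99 controls were left out. The gene table gave 1 symbol to 24956 of those tested, several to 361 and none to 27449. Members and lists were chosen with earlier results of these data known.

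Signal classes were read from the step size of the deposited single-precision values, which grows with the signal: high is at least 256 in at least 11 arrays, middle at least 16. A probe set at the floor carried the shared lowest value in at least 2 arrays. These signals are before centring.

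The model, run with limma 3.58.1 and statmod 1.5.0 in R 4.3.3, had 4 group means per probe set, a correlation between arrays of 1 animal (0.0474) and empirical Bayes (8 residual and 2.22 prior degrees of freedom). The Benjamini-Hochberg threshold was 0.05. Tests were 2-sided, and an exact permutation of 3 arrays against 3 cannot go below 0.1. The number of arrays limits precision. No low-value filter was applied, so all 38 members were tested. The fit was tested on simulated data.

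Named with values were the main neuronal subunits, members past 5%, up to 4 higher and 4 lower members without overlap by ascending p, and partner genes by the 2 smallest p per comparison. Others are said to be chosen later. Alternatives covered scaling, array weights, animal correlation, sex, age, replicate block, signal class, each array left out and gene means.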

Additional observations from a re-analysis of the deposited data

How the results depend on the processing

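Counts are of probe sets, except that the fit with the mean over the probe sets of a gene counts genes. After adjustment over all probe sets, the 0 calls for training in SII became 1 under quantile normalization, 2 with array weights, 2 with sex as covariate and 1 with high and middle signal only. The 0 calls for the average training change became 1 with high and middle signal only. For IPS against SII they became 5 under quantile normalization, 2 with sex as covariate and 2 with the mean over the probe sets of a gene.

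Member counts at an unadjusted p under 0.05 moved as follows. In SII 1 became 0 under quantile normalization, with age as covariate, with each region fitted alone, and in the 4 animals with both regions. With high and middle signal only it was also 0, but that fit leaves out the low-signal SCN4A probe set and cannot test its call. In IPS 0 became 1 with age as covariate, each region alone, the 4 animals, and without the 3 arrays with raised hybridisation controls. For the difference 0 became 1 with array weights, age as covariate and the gene mean, and 2 without those 3 arrays. For the average 0 became 1 with array weights. The fits without those 3 arrays and with the 4 animals were chosen after seeing the data.

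With the replicate number as a block, the difference count became 1 (CACNA1E, 1.88, limma p 0.0497), and no other count of member calls moved. Trained and control arrays of 1 number are different animals, and their deviations from the group means correlated at -0.20 to 0.06, so the numbers do not pair them.

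With each array left out in turn, adjusted calls ranged from 0 to 5 in SII, 0 to 2 in IPS, 0 to 2 for the difference, 0 to 3 for the average and 0 to 3 for the regions. Member counts ranged from 0 to 2 in SII, 0 to 2 in IPS, 0 to 1 for the difference, 0 to 2 for the average and 3 to 7 for the regions, 3 being reached without SII trained 2 and without IPS control 3. Unadjusted calls over all probe sets ranged from 685 to 3132 in SII (2043 as reported), 517 to 3774 in IPS (1726), 606 to 3933 for the difference (1944), 577 to 2619 for the average (1836) and 3508 to 5796 for the regions (4888), over all alternatives at probe set level. The fits restricted by signal class tested fewer probe sets, so these counts do not share a denominator.

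The 6 region differences kept their sign in every alternative run. An unadjusted p under 0.05 was kept in 24 of 24 by CACNG4 MmugDNA.22539.1.S1_at (-1.01 to -0.56) and in 23 of 23 by SCN7A (-1.57 to -1.11). It was kept in 23 of 24 by SCN1A (0.46 to 0.83), the exception being the 4 animals (limma p 0.0637), and in 19 of 23 by CACNA1E (0.73 to 1.38). It was kept in 12 of 24 by SCN2A MmugDNA.23510.1.S1_at (-1.12 to -0.61) and in 12 of 23 by CACNG4 MmuSTS.3282.1.S1_at (-1.44 to -0.24). SCN4A in SII kept it in 15 of 24 (0.62 to 2.03). These fits used single probe sets. By the mean over its probe sets, SCN1A was not among the genes with an unadjusted p under 0.05 between regions. Its regions then overlapped, with SII trained 3 at 0.23 and IPS trained 1 at -0.21. Causes were not tested. Low and floor signals limit what the 16 members in those classes can show.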
